A study of Homo sapiens with 172 samples.

Results

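Gene clusters that build skin and hair were examined for contact with the nuclear lamina in single human cells. Members were the 46 bins of 100 kb that lie in these clusters in hg19, out of 26414 bins with signal in the table. Bins were taken by position, but the clusters were chosen with earlier results of these data known. They fall into 5 clusters, the type I keratins with keratin-associated proteins (KRTAP) at 17:38800001 to 39800000 (10 bins), the type II keratins at 12:52500001 to 53400000 (9 bins), a proximal KRTAP cluster at 21:31600001 to 32300000 (7 bins), a distal KRTAP cluster at 21:45900001 to 46100000 (2 bins), and the epidermal differentiation complex at 1:151900001 to 153700000 (18 bins). All 46 bins carried values, as did the 100 bins of the flanks, 1 Mb on each side of a cluster. The cells were KBM7, a near-haploid line from a human chronic myeloid leukaemia. They all belonged to clone 5-5 (ploidy 1N) and carried Fucci cell cycle markers and Dam methyltransferase fused to LaminB1. The fusion was stabilised with 0.5 nM Shield1 for 15 h, and the 2% smallest cells positive for both Fucci markers were sorted one per well. There was 1 clone and no second group, so no test between groups was possible, and the labels name no separate cultures. RNA was not measured, and the identity of the cells was not checked against marker genes here.

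Keratins form the intermediate filaments of epithelia, each filament built from pairs of an acidic type I and a basic type II chain. KRT5 and KRT14 are the pair of the basal epidermis, KRT1 and KRT10 that of the layers above, KRT8 and KRT18 that of simple epithelia. KRTAP proteins crosslink the keratins of the hair shaft. The epidermal differentiation complex encodes filaggrin (FLG), which bundles keratins, precursors of the cornified envelope such as involucrin (IVL), loricrin (LORICRIN), the small proline-rich (SPRR) and the late cornified envelope (LCE) proteins, and many S100 calcium-binding proteins. S100A8 and S100A9 are major proteins of neutrophils and monocytes, whereas most hair and epidermal genes are silent outside epithelia. Chromatin at the nuclear lamina, the protein mesh under the inner nuclear membrane, is typically poor in active genes and rich in A and T.

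In RefSeq's gene table, 28 type I keratin and 34 KRTAP genes lie on chromosome 17 and 27 keratin genes on chromosome 12, all but KRT18 of type II. The proximal cluster of chromosome 21 holds 33 KRTAP genes, from KRTAP24-1 to KRTAP19-8, and the distal one 16, from KRTAP10-1 to KRTAP10-12. The epidermal complex holds 58 genes of the listed families between S100A10 and S100A1. This table is of GRCh38.p14, so it was used for gene order and names only, and no gene was set against an hg19 bin. Promoter windows of 300 bases (250 before and 50 after the gene start) were taken from RefSeq for 30 of the 33 proximal, 15 of the 16 distal and 33 of the 34 chromosome 17 KRTAP genes, and for 55 of the 58 epidermal genes. Median GC content was 38.5% for the proximal KRTAP promoters, 42.0% for those on chromosome 17, 53.0% for the epidermal complex and 55.3% for the distal KRTAP promoters, against 62.7% for the 15843 coding genes with a window. Every proximal window lay at or below 45.7% and every distal one at or above 47.3%. Only 20 of 28 keratin genes on chromosome 17 (median 43.7%) and 14 of 27 on chromosome 12 (median 49.7%) had a window. The medians of these keratin genes therefore leave out many members.

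As examples of these promoters, the upstream 250 bases are given for the middle gene, in gene order, of each KRTAP cluster. KRTAP22-2 is from the proximal cluster (chr21:30590398-30590647, minus strand), KRTAP10-9 from the distal one (chr21:44626843-44627092, plus strand) and KRTAP4-12 from chromosome 17 (chr17:41124183-41124432, minus strand), all in GRCh38.p14, 5′ to 3′ on the gene's strand. Capitals mark TATAAA, on either strand, and GATC, the site that Dam methylates.
KRTAP22-2: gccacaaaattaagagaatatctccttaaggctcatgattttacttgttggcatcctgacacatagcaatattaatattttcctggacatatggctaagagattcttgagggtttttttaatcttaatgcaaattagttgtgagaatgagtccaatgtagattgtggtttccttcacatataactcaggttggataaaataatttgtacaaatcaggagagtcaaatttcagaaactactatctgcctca
KRTAP10-9: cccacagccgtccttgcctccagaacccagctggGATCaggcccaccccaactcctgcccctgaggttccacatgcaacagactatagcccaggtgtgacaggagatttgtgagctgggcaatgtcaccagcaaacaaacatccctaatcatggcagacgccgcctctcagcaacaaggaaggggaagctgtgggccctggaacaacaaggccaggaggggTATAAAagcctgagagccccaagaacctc
KRTAP4-12: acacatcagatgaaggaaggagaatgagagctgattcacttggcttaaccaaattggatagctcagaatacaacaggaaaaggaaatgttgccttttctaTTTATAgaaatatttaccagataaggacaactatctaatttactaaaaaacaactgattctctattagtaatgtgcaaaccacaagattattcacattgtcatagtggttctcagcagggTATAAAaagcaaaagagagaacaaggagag
The upstream stretch of KRTAP22-2 had 33.6% GC, that of KRTAP10-9 57.6% and that of KRTAP4-12 34.4%. Neither motif was found upstream of KRTAP22-2. TATAAA began 29 bases before the gene start in KRTAP10-9 and 30 bases before it in KRTAP4-12. Over the windows of all 3 KRTAP clusters TATAAA on either strand was frequent, in 23 of 30 proximal (76.7%), 11 of 15 distal (73.3%) and 29 of 33 chromosome 17 genes (87.9%), against 9.63% of all coding genes. GATC was found in 46.7%, 33.3% and 54.5% of these windows, and in 39.7% of all coding genes. Matches of the 2 motifs cannot overlap. These matches describe the sequences and are not binding sites, and contact was measured over bins that hold many genes.

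The values were the authors' ratios of observed over expected reads. Every one of the 168 columns correlated best with the column numbered 86 higher or lower, and each such pair was averaged as 1 cell, for n = 84 cells. A bin counted as contacting the lamina from a ratio of 1 upwards, and contact frequency is the percent of the 84 cells in contact. Whole reads recovered from the ratios ranged from 7134 to 418937 per cell in the deeper column, with a median of 63700, and a ratio of 1 stood for 2.26 to 3.33 reads in a bin of these clusters in the median cell. Intervals are exact Clopper-Pearson 95% intervals over cells and cover counting error only. SDs are over cells and show cell-to-cell variation, not replicate error. In shallow cells a missed and an absent contact cannot be told apart. A ratio of 1 also stands for fewer reads there, so very few reads can count as a contact.

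The clusters differed widely. The proximal KRTAP cluster touched the lamina most, with 48.8% ± 38.3 of its bins in contact per cell (SD, n = 84). The epidermal complex followed with 7.67% ± 13.1, the type I keratin cluster with 3.93% ± 12.3, the type II keratins with 0.926% ± 3.54 and the distal KRTAP cluster with 0.595% ± 5.46. These levels depend on the cutoff: at 0.5 and 2 the type I mean was 7.26 and 1.19%, and the type II mean 3.04 and 0.265%. Mean ratios gave the same order, at 1.504, 0.233, 0.125, 0.0508 and 0.0241. The median contact frequency of the 46 member bins was 4.76%, against 16.7% for all covered bins. Contact in at least 20% of cells was seen in 8 of the 46 bins (17.4%), compared with 47.7% of all covered bins, and 7 of these 8 lay in the proximal KRTAP cluster. Contact in under 5% of cells was seen in 26 of 46 (56.5%, against 36.7% of all covered bins), and 7 bins were in contact in no cell (15.2%, against 6.19%).

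Over pairs of clusters within a cell, the proximal KRTAP cluster was above the epidermal complex by 41.1 ± 40.4 percentage points (higher in 60 of 84 cells, lower in 10) and above the type I cluster by 44.9 ± 40.3 (higher in 62, lower in 4). It exceeded the type II cluster by 47.9 ± 38.6 points (higher in 62 cells, lower in 1) and the distal KRTAP cluster by 48.2 ± 38.3 (higher in 62 cells, lower in none, equal in 22). The other 6 of the 10 differences were between 0.331 and 7.08 points and smaller than their SD over cells. That spread is not the error of the mean. The epidermal complex was higher than the type II cluster in 34 cells and lower in 4, and higher than the type I cluster in 30 and lower in 13. The type II and distal KRTAP clusters differed by 0.331 ± 6.59 points, and their order depended on which cells and settings were used. The proximal cluster was first, the epidermal complex second and the type I cluster next with all cells and under all 14 alternatives that gave every cluster a value. The quotient of the first to the second was 6.36, with a range from 3.74 at a cutoff of 0.5 to 12.7 at a cutoff of 2.

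**Figure D1:**
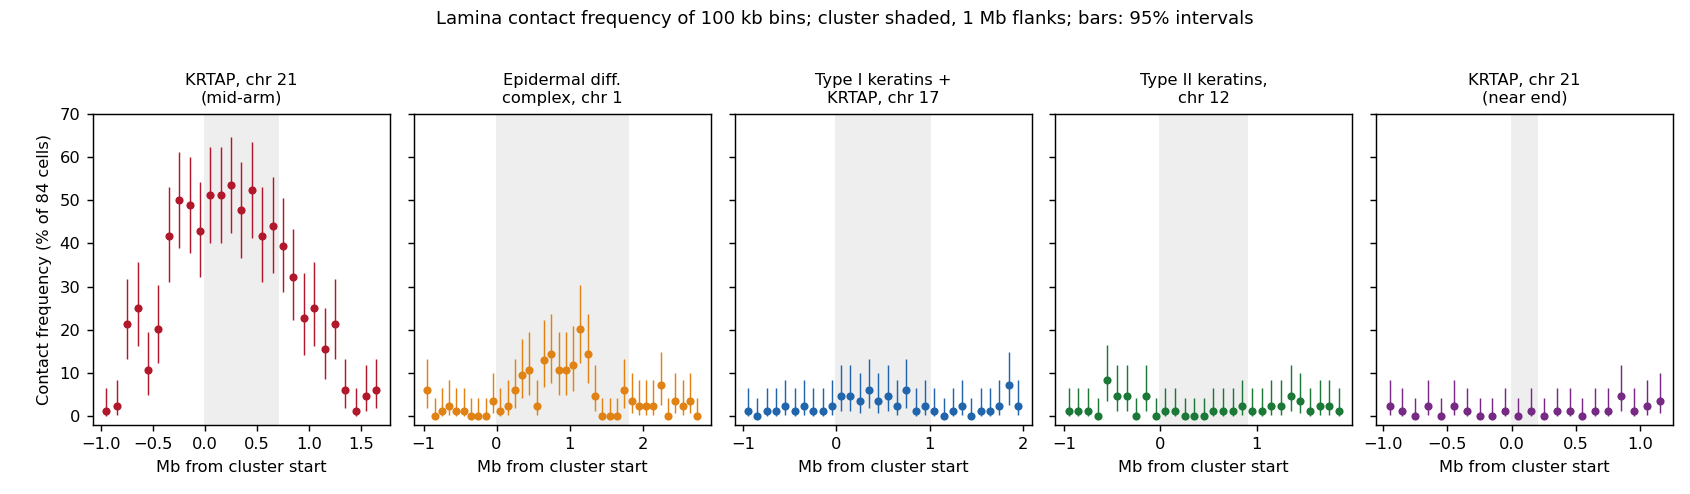
Contact frequency (percent of 84 cells, vertical axis) of each 100 kb bin against its distance from the start of the cluster in Mb, for the 5 clusters (shaded) and 1 Mb on each side; bars are exact 95% intervals. The proximal KRTAP cluster of chromosome 21 (mid-arm) lies between 41.7 and 53.6%, the epidermal complex has a lower hump that reaches 20.2%, and the other clusters stay at or below 5.95%.

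In the proximal KRTAP cluster, whose genes encode crosslinkers of the hair shaft such as the KRTAP13, KRTAP19 and KRTAP6 families, every bin was in contact in a large share of cells. From the first bin (21:31600001 to 31700000) to the last (21:32200001 to 32300000), contact frequencies were 51.2, 51.2, 53.6, 47.6, 52.4, 41.7 and 44.0%. The highest, 21:31800001 to 31900000, was in contact in 45 of 84 cells (53.6%, 95% interval 42.4 to 64.5%). The lowest, 21:32100001 to 32200000, was in contact in 35 (41.7%, 31.0 to 52.9%). Both were in contact in 30 cells, the highest alone in 15 and the lowest alone in 5. That surplus follows from picking the bins by frequency. At least 50% was reached by 4 of the 7 bins, against 19.0% of covered bins on chromosome 21 and 30.7% of all, and the first 3 bins were the longest unbroken stretch at that level. None of the 7 bins was under 5%, against 40.2% of covered bins on chromosome 21, nor was the mean set by single cells, as it lay between 48.2 and 49.4% with any 1 cell left out.

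The high level did not begin or end at the cluster. Contact frequency rose from 20.2% at 21:31100001 to 31200000 to 41.7% in the next bin, the largest step in the region, which lies 0.4 Mb below the cluster. The bins between that step and the cluster were at 41.7, 50.0, 48.8 and 42.9%. In gene order, GRIK1, a glutamate receptor subunit gene, and the claudin genes CLDN17 and CLDN8 precede the cluster. Above it, frequencies fell gradually through 39.3, 32.1, 22.6, 25.0, 15.5 and 21.4% to 5.95% at 21:32900001 to 33000000. TIAM1, an activator of the GTPase RAC1, and SOD1, the cytosolic superoxide dismutase, are the next coding genes in order. The 13 bins from 21:31200001 to 32500000, a span set after the values were seen, averaged 45.9% ± 35.9, and 10 cells had every one of them in contact.

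Set against its flanks, the cluster was higher by 26.9 ± 26.0 points (48.8 against 21.9%), in 60 of 84 cells, with 7 cells lower. With flanks of 0.5 Mb the difference was 15.0 ± 24.6, less than the spread over cells. The rest of chromosome 21 had 21.3% ± 11.4 of bins in contact. The cluster was above it in 57 cells and below it in 26, by 27.6 ± 31.7 points, also less than the spread over cells. Within a cell the lowest value of the cluster was 0%, the median 42.9% and the highest 100%. In the 42 cells with more bins covered by reads the mean was 59.9%. At a cutoff of 2 in place of 1 it was 26.0%. In the lower-numbered columns of cells 27, 63 and 69 chromosome 21 had under 5% of the reads expected from the other cells. In cell 69 the higher-numbered column was also low, at 4.57%. Without cells 27, 63 and 69 the mean was 50.6%.

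Contact of the proximal cluster varied from cell to cell across its whole width. No bin was in contact in 22 of 84 cells (26.2%), all 7 bins were in contact in 16 (19.0%), and the remaining 46 cells had from 1 to 6. At least 1 bin was in contact in 62 cells (73.8%, 95% interval 63.1 to 82.8%). In those cells the median was 5 of 7 bins, and 58 of them had at least 2. Of the 42 cells with 2 to 6 bins in contact, in which a run can be broken, 13 had an unbroken run. The cluster held a median of 19.5 reads per cell in the deeper column, from 0 in 4 cells to 225.

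**Figure D2:**
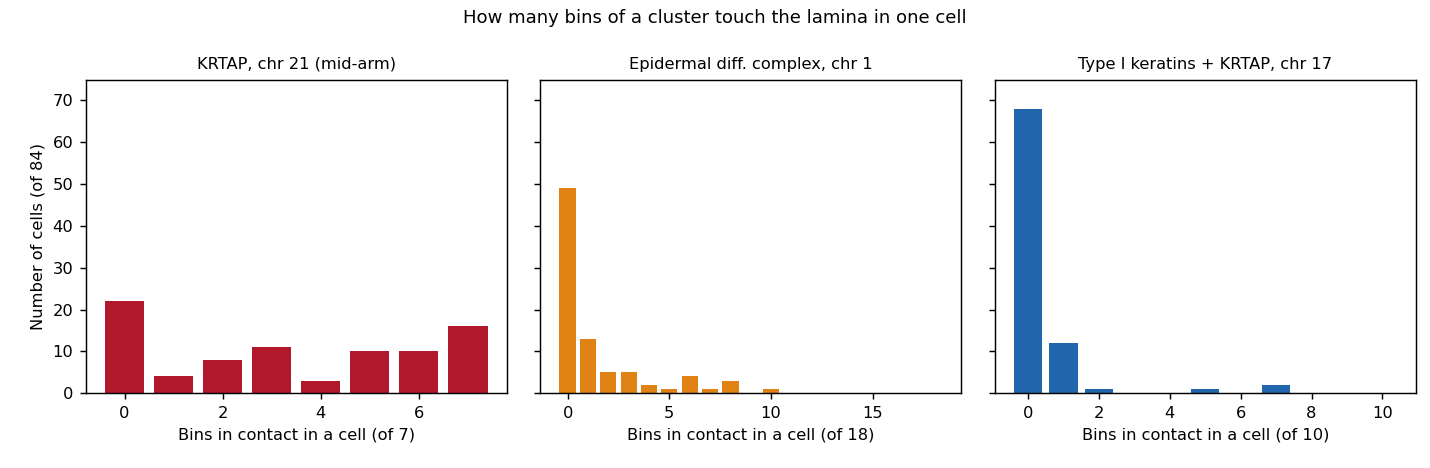
Number of cells (vertical axis, of 84) by the number of bins in contact within a cell (horizontal axis) for the proximal KRTAP cluster of chromosome 21 (7 bins), the epidermal differentiation complex (18 bins) and the type I keratin and KRTAP cluster (10 bins). The proximal KRTAP cluster has its highest counts at 0 (22 cells) and 7 bins (16 cells), whereas the other 2 have their highest counts, 49 and 68 cells, at 0 and at most 13 cells at any other number.

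Bins of the proximal cluster tended to be in contact in the same cells. Over 84 cells the 21 pairs of bins had correlations of contact from 0.36 to 0.64, with a mean of 0.51. With the overall contact share of the cells regressed out, the mean was 0.48. Cells share library, depth and overall contact, so these are descriptions without a test. The same correlation with the 4 lower-flank bins at 21:31200001 to 31600000 had a mean of 0.43, with the 6 upper-flank bins at 21:32300001 to 32900000 a mean of 0.36, and with the 4 bins beyond, at 21:32900001 to 33300000, a mean of 0.03. With the 6 outermost lower-flank bins, at 21:30600001 to 31200000, it had a mean of 0.19. The mean contact of these 4 flank segments was 45.8, 26.0, 4.46 and 13.5% in the order given, and the correlation that a rarely contacted bin can reach is limited by its frequency.

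**Figure D3:**
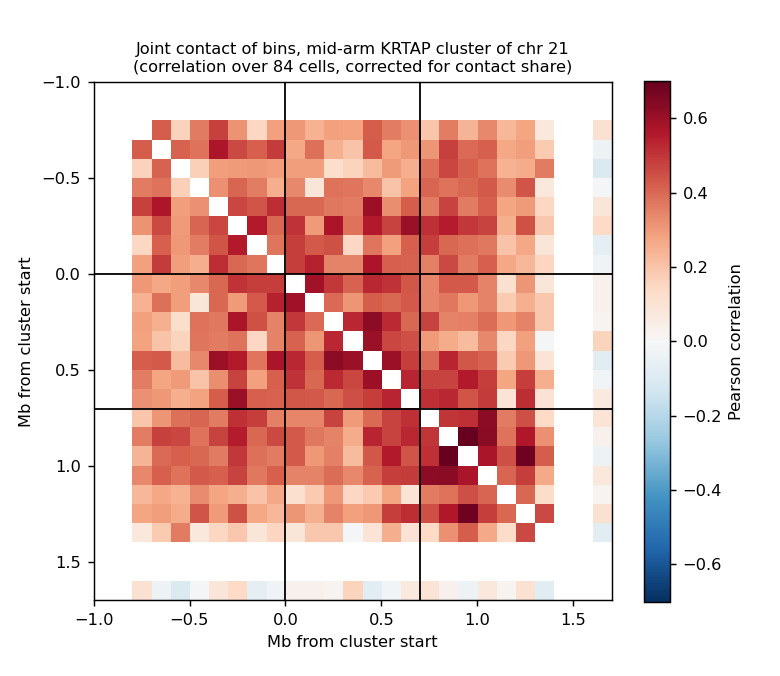
Correlation of contact over 84 cells between bins of the proximal KRTAP cluster (inside the black lines) and its flanks, corrected for each cell's contact share, with both axes in Mb from the cluster start. Colour gives Pearson's correlation, and the diagonal and bins contacted in under 5% of cells are blank. Positive values fill the cluster, where pairs lie between 0.31 and 0.63, and extend into the flanks on both sides.

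The distal KRTAP cluster, near the end of the same chromosome arm and made of the KRTAP10 and KRTAP12 families, almost never touched the lamina. The first bin (21:45900001 to 46000000) was in contact in 0 of 84 cells, which allows a frequency of up to 3.57% when 3 cells are taken as the limit of a count of 0 (the exact 95% interval ends at 4.30%), and the last (21:46000001 to 46100000) in 1 (1.19%, 95% interval 0.0301 to 6.46%). On chromosome 21, 9.07% of covered bins were in contact in no cell. The contacting cell was cell 48. It also had the highest share of rarely contacted bins in contact, 24.1% of all bins contacted in under 5% of cells, against a median of 1.12% over cells. Without it the mean of the cluster was 0%. Its flanks were as low (1.37% ± 4.06), and the rest of chromosome 21 had 23.2% ± 12.6. The cluster was below that rest in 82 of 84 cells. The cluster held 28 observed reads in all 84 deeper columns together and none in 74 cells, while a ratio of 1 stood for 2.26 reads per bin in the median cell, against 2.88 in the proximal cluster.

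The type I keratin cluster of chromosome 17 was rarely in contact. In gene order it runs from KRT222 through KRT10 and KRT12 to the KRTAP genes, then the hair keratins KRT31 to KRT38, and ends with KRT14, KRT16 and KRT17, the last 2 known for their induction in injured skin. Its 10 bins had frequencies from 1.19% (17:39600001 to 39700000, 1 cell, 95% interval 0.0301 to 6.46%) to 5.95% (17:39100001 to 39200000, 5 cells, 1.96 to 13.3%). The first bin was at 4.76% and the last at 2.38%. The largest step within the cluster was from 5.95% at 17:39500001 to 39600000 down to 1.19% in the next bin, and 2 steps in the upper flank, into and out of 17:40600001 to 40700000 (7.14%), were of the same size. Under 5% lay 8 of the 10 bins, a share near the 73.4% of covered bins on chromosome 17. None reached 50%, against 5.83% of bins on that chromosome.

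At least 1 bin was in contact in 16 cells (19.0%, 95% interval 11.3 to 29.1%), of which 12 had a single bin. The lowest and the median cell were at 0% and the highest at 70.0%. The mean rested on few cells. Cells 69 and 83 had 7 of 10 bins in contact each and cell 48 had 5. Without these 3 cells, chosen after their values were seen, the mean fell from 3.93 to 1.73%. The lower-numbered column of cell 69 had 0.647% of the expected reads on chromosome 12 and 0.9203% on chromosome 21. Its higher-numbered column had 4.49% and 4.57%. The part of these low read counts in the level on chromosome 17 was not tested. The 16 contacting cells had a median of 2.98% of all rarely contacted bins in contact, against 1.12% over all cells. Their median was 38623.5 reads in the deeper column, against 63700 over all cells, and the part of either was not tested. The cluster exceeded its flanks (1.67% ± 4.13) by 2.26 ± 12.5 points, less than the spread over cells, with 14 cells higher, 10 lower and 60 equal. It was below the rest of chromosome 17 (8.69% ± 5.71) in 73 cells. Cell 63, counted as without contact in the cluster, had 0.851% of the expected reads on chromosome 17 in its lower-numbered column.

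The type II keratin cluster of chromosome 12 had still fewer contacts. It runs in gene order from KRT80 and KRT7 through the hair keratins KRT81 to KRT86, KRT6A, KRT5 and KRT1 to KRT8 and KRT18, the only type I gene of the cluster. Of its 9 bins, 3 neighbours from 12:52700001 to 53000000 were in contact in no cell, 5 in 1 cell each (1.19%), and the last, 12:53300001 to 53400000, in 2 (2.38%, 95% interval 0.290 to 8.34%). All 9 bins were under 5%, against 41.4% of covered bins on chromosome 12, and 3 were at 0, against 5.81%. Only 6 cells had any bin in contact (7.14%, 2.67 to 14.9%). Of these, 5 had 1 bin and cell 40 had 2. These 6 cells had a median of 3.83% of all rarely contacted bins in contact, against 1.12% over all cells, and a median of 23688.5 reads in the deeper column, against 63700, and the part of either was not tested. The lowest and the median cell were at 0% and the highest at 22.2%.

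The flanks of the type II cluster had 2.44% ± 5.35 of bins in contact. The largest step was in the lower flank, from 0 to 8.33% at 12:51900001 to 52000000. Cluster minus flanks was -1.51 ± 5.57 points, less than the spread over cells, with 5 cells higher and 18 lower. The rest of chromosome 12 had 26.0% ± 10.1, and the cluster was below it in 81 of 84 cells, by 25.0 ± 10.9 points. The deeper columns held 171 reads in the cluster in all, and 44 cells had none. Cells 69 and 79, both counted as without contact, had few reads on chromosome 12. Cell 69 had 0.647 and 4.49% of the expected reads in its lower- and higher-numbered columns, and cell 79 had 3.32% in its lower-numbered one. In the 42 better covered cells the mean was 0.265%, as only 2.38% of them had a contact.

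The epidermal differentiation complex had an intermediate level with a hump. Frequencies of its 18 bins, from 1:151900001 to 153700000, were 1.19, 2.38, 5.95, 9.52, 10.7 and 2.38%, then 13.1, 14.3, 10.7, 10.7, 11.9 and 20.2%, and then 14.3, 4.76, 0, 0, 0 and 5.95%. The highest bin, 1:153000001 to 153100000, was in contact in 17 of 84 cells (95% interval 12.3 to 30.4%) and was the single bin of the complex at 20% or more, against 38.1% of covered bins on chromosome 1. The 3 bins at 0, from 1:153300001 to 153600000, each allow up to 3.57% by the limit of 3 cells and 4.30% by the exact interval, and 7.95% of covered bins on chromosome 1 were at 0. No bin of the complex reached 50%, against 24.0% of bins on that chromosome. Bin 6, 1:152400001 to 152500000, stood low between its neighbours, and the step from it to the next bin, from 2.38 to 13.1%, was the largest in the region. Bin 5 was in contact without bin 6 in 8 cells and bin 6 without bin 5 in 1. Bin 7 was in contact without bin 6 in 10 cells and bin 6 without bin 7 in 1. Bin 6 was picked for its low frequency, so both surpluses follow from that choice.

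In gene order the complex starts with S100A10 and S100A11, whose proteins partner annexins. These are followed by the fused-type genes TCHHL1, TCHH, RPTN, HRNR, FLG, FLG2 and CRNN, the 19 LCE genes, IVL, the 11 SPRR genes and LORICRIN. At the other end stand S100A9, S100A12 and S100A8 and the remaining S100 genes up to S100A1. The S100 genes are thus at both ends of the order and the cornified envelope genes in between. Median promoter GC content was 59.5% for the 16 S100 genes, 47.3% for the 7 fused-type genes, 55.2% for 18 LCE and 49.0% for 9 SPRR genes with a window. Bins 3 to 14, grouped after their values were seen, averaged 10.7% ± 19.0. The 2 bins before and the 4 bins after them averaged 1.59% ± 5.56. The middle was higher in 29 cells, lower in 2 and equal in 53, a direction set by the grouping. Which genes lie in which bin was not determined.

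Compared with its flanks (2.14% ± 5.50), the epidermal complex was higher by 5.53 ± 14.0 points, with 33 cells higher, 9 lower and 42 equal. This mean is less than the spread over cells, which is not the error of the mean. The rest of chromosome 1 had 23.3% ± 7.50, and the complex was below it in 72 of 84 cells, by 15.7 ± 14.3 points. The lowest and the median cell had 0% of the complex in contact and the highest, cell 80, had 55.6%. A contact was seen in 35 cells (41.7%, 95% interval 31.0 to 52.9%), of which 13 had a single bin and 22 had more, with at most 10 of the 18 bins in a cell. These 35 cells had a median of 52664 reads in the deeper column, against 63700 over all cells. The part of this was not tested. The longest run was 7 bins. Correlations among the 15 bins with any contact averaged 0.22 over cells (105 pairs), rising to 0.29 for adjacent bins, and those with the flanks averaged 0.03 below and 0.01 above. At a cutoff of 0.5 the mean of the complex was 15.5% and at 2 it was 2.05%. In cells 1 to 29 it was 9.00% and in cells 30 to 86 6.97%. The deepest cell of the first subset had 90564 reads in the deeper column, and that of the second 418937. The part of depth in this difference was not tested.

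**Figure D4:**
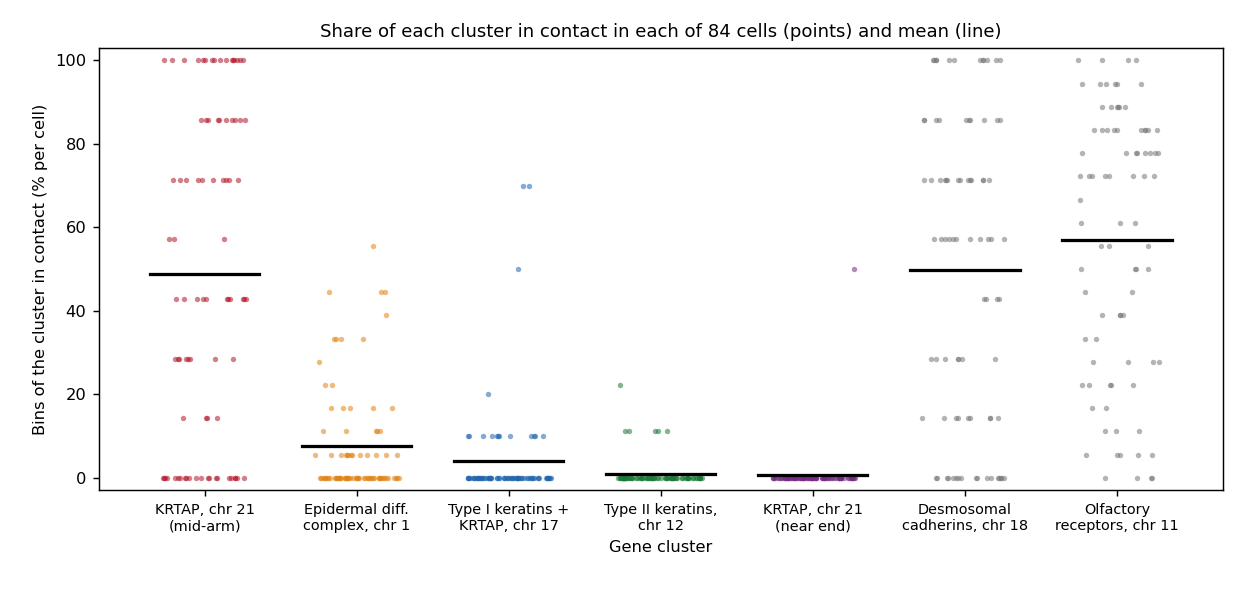
Percent of a cluster's bins in contact (vertical axis) in each of 84 cells (points, spread sideways for visibility) with the mean as a line, for the 5 clusters and, in grey, 2 clusters used for comparison. The proximal KRTAP cluster covers the range from 0 to 100% like the comparison clusters, whereas 49 to 83 of the 84 cells sit at 0 in the other 4 clusters.

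Contact of the different clusters was then compared over cells. Of 35 cells with a contact in the epidermal complex, 27 also had one in the proximal KRTAP cluster, which was in contact in 62 of 84 cells overall. Over 84 cells the share of bins in contact of the proximal cluster correlated at 0.003 with that of the epidermal complex, at -0.003 with the type I and at -0.04 with the type II cluster. The epidermal complex and the type I cluster correlated at 0.002, with 8 cells in contact at both. The 2 KRTAP clusters of chromosome 21 correlated at 0.07, and the highest value, 0.41 for the type I and distal KRTAP clusters, rests on cell 48. With the overall contact share of the cell, the correlation was 0.33 for the proximal KRTAP cluster, 0.08 for the type I cluster, 0.07 for the epidermal complex and -0.21 for the type II cluster. Since most clusters are at 0 in most cells, low correlations carry little information.

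As a reference, another set of epidermal adhesion genes and another large tissue-restricted family were read in the same cells. These comparison clusters were also chosen with earlier results of these data known. The interval taken as the desmosomal cadherins, which join keratin filaments of neighbouring cells at desmosomes, was 18:28500001 to 29200000. It had 49.8% ± 35.9 of 7 bins in contact, and its flanks were as high, at 50.1% ± 22.3. The interval taken as an olfactory receptor cluster, 11:4400001 to 6200000, had 56.9% ± 31.5 of 18 bins in contact, and its flanks 21.2% ± 14.3. Which genes lie in these bins was not determined, so they may hold genes of other families. The proximal KRTAP cluster differed from the cadherins by -1.02 ± 41.0 points, higher in 35 cells and lower in 30, and from the olfactory receptors by -8.07 ± 42.4 points, higher in 40 cells and lower in 41. Both differences were smaller than the spread over cells. The epidermal complex, of the same length as the olfactory cluster, differed from it by -49.2 ± 36.2 points and was lower in 72 cells. Against the cadherins the differences were -42.2 points for the epidermal complex, -45.9 for the type I, -48.9 for the type II and -49.2 for the distal KRTAP cluster.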

How the data were processed

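Genomic DNA of single KBM7 cells was cut with DpnI at methylated GATC, ligated to adaptors, amplified and sequenced, per the labels' protocols. The authors deposited 1 value for each of 30376 bins (100 kb), a ratio of observed to expected reads, for 168 of 172 labelled samples. Samples 81, 82, 167 and 168 are not analysed here. Per the submitters' processing notes, cutadapt and Bowtie2 2.1.0 were used with hg19. How the expectation was built and duplicates were treated is not given in the sources used here. Bins without a value (3792) or at 0 in every column (170) were left out, which leaves 26414.

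Paired columns were averaged, and contact was a ratio of at least 1. Reads were recovered as whole multiples of a step per bin and column, and 100% of values above 0 were whole within 0.02. They describe depth only. The reads carry no molecular identifiers, so intervals leave out PCR duplication. The recovery of reads was tested on simulated data. Simulated contacts were set above or below the cutoff, so their return was fixed in advance and checks the counting only. Averaging of columns, cluster and flank limits and correlations were not simulated. Cells are not replicates, so values are means with SDs over cells, counts of cells and correlations, with no p-value. Python 3.11.15, numpy 2.4.6, pandas 2.3.3 and scipy 1.17.1 were used. Named bins were the first, last, highest and lowest of each cluster, stretches at 50% or more and the largest step. The clusters, lists and alternatives were chosen with earlier results of these data known. Alternatives were other cutoffs, scaling by cell mean, single columns, subsets of cells, 3 bins averaged, and other cluster and flank limits. Chromosome-poor cells had under 5% of the expected reads on the chromosome of the cluster.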

Additional observations from a re-analysis of the deposited data

How the results depend on the processing

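Under other cutoffs, cells, bins and limits, 498 values moved by less than 1 SD over cells or stayed in their 95% binomial interval, 40 moved more and 5 changed sign; of 40 without cells 48, 54 and 56, an alternative added after seeing the data, 38 and 2 did. An SD over cells is wide, so this is a loose bound. Percents of cells, with any contact or in contact at a named bin, were judged against the narrower binomial interval and make up all values that moved more. At cutoffs of 0.5 and 2 the mean contact also changed by over 1.5 times, to 7.26 and 1.19% for the type I cluster, 3.04 and 0.265% for the type II cluster, 15.5 and 2.05% for the epidermal complex and 1.19 and 0% for the distal KRTAP cluster, and to 26.0% at 2 for the proximal one. The percent of cells with any contact in the type I cluster (19.0%) was 33.3, 9.52 and 8.33 at cutoffs of 0.5, 1.5 and 2 and 7.14 with 3 bins averaged. For the type II cluster (7.14%) it was 16.7 and 2.38 at cutoffs of 0.5 and 2, 2.38 in the 42 better covered cells and 1.19 with 3 bins averaged. For the proximal KRTAP cluster (73.8%) it was 59.5 at a cutoff of 2 and 83.3 in the better covered cells. For the distal one (1.19%) it was 0 at cutoffs of 1.5 and 2, in odd cells, in cells 1 to 29 and without cells 48, 54 and 56. For the epidermal complex (41.7%) it was 58.3, 26.2 and 17.9 at the 3 cutoffs, 55.2 in cells 1 to 29 and 25.0 with 3 bins averaged. Higher cutoffs lower it by construction; otherwise the cause was not tested. The type II minus distal KRTAP difference (0.331 points) was -0.132 in even cells, -0.303 in cells 30 to 86, -0.926 in the better covered cells and -0.198 with 3 bins averaged. Distal cluster minus flanks (-0.774) was 0.0595 with 3 bins averaged. With its first and last bin left out the distal cluster had no bin and no value. No paired analysis was possible because the labels hold a single group. A ratio of 1 stood for 2.26 to 3.33 reads in the median cell, which limits every call of a single bin.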
